A study of Arabidopsis thaliana with 48 samples.

Results

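Roots of wild-type Arabidopsis seedlings were set against shoots of the same line under full sulfate supply, to see where each step of sulfur and glucosinolate metabolism and each main function was expressed. The comparison takes 3 root libraries and 3 shoot libraries of the ecotype Col-0, 6 of the 48 libraries of the study, and every locus of the deposited abundance table. The loci described below come from 46 lists of pathways and functions with 584 loci, of which 567 passed the filter on low counts and were tested. Samples were labelled root and shoot, the shoot samples also being called leaf in the design text. Seedlings were 18 days old and had grown on agarose plates of modified Long Ashton medium with 0.75 mM MgSO4 (+S) and 0 mM MgCl2. Both groups carried the wild-type genotype with no transgene, and per the labels each organ was collected as 3 biological replicates; the labels do not say which root and shoot sample came from the same plants. The 42 other libraries are Col-0 roots and shoots at 0.015 mM MgSO4 with 0.75 mM MgCl2 (-S), and roots and shoots of the T-DNA lines labelled eil1, eil3 and eil3 eil1 at +S and -S. They enter the results only where named, except that the 6 Col-0 -S libraries share the fit's estimate of spread. Values are CPM, counts scaled to a common library size with TMM, a method that sets the bulk of loci level between libraries. Differences are log2 of root over shoot ± an approximate SE, and a locus was called where edgeR's quasi-likelihood test gave a Benjamini-Hochberg adjusted p under 0.05 over all loci. Replicate numbers are those of the table's columns.

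Plants take up sulfate through root plasma membrane transporters and reduce it in plastids. ATP sulfurylase activates sulfate to adenosine 5'-phosphosulfate (APS), APS reductase and sulfite reductase carry it to sulfide, and OAS thiol-lyase joins sulfide to O-acetylserine to give cysteine, the source of methionine and glutathione. APS kinase diverts part of the APS to PAPS, the sulfate donor of sulfotransferases. Arabidopsis uses those sulfotransferases to finish glucosinolates, defence compounds made from methionine (aliphatic) or tryptophan (indolic). Myrosinases cleave glucosinolates when tissue is damaged, and specifier proteins steer the products towards nitriles, isothiocyanates and other compounds.

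Root libraries held 29049312 to 38269946 estimated counts and shoot libraries 27128201 to 36766627. Of 22301 loci tested, 17040 (76.4%) were called, 9041 (40.5%) higher in roots and 7999 (35.9%) higher in shoots. At least a 2-fold difference with a call was seen for 42.9% of loci, 5050 (22.6%) higher in roots and 4516 (20.3%) higher in shoots, and this 2-fold rule is the one used below. The counts of each list below are to be read beside these shares. The 10 most abundant loci took 3.81 to 5.14% of the counts of a root library and 9.92 to 11.4% of those of a shoot library. Scaled by total counts instead, the median difference of all tested loci was 0.61 in place of 0.06, and 74.6% of called loci were higher in roots in place of 53.1%. None of the loci called with at least 2-fold changed sign under that scaling, but 2058 smaller called differences did. In bulk tissue, fewer cells of a type and less RNA per cell cannot be told apart. Root replicate 1 stood apart from the other 2 root libraries: mitochondrial targets took 0.159% of its counts, against 0.0599 and 0.0553% in those. Chloroplast targets took 0.0382% of its counts, against 0.0102 and 0.00692% in those and 0.504 to 0.706% in shoots. The abundant locus AT3G41768, at 6155 ± 7721 CPM in roots and 2477 ± 442 CPM in shoots (SD, n = 3 each), was highest in root replicate 1. Without that library 16457 loci were called and 9566 with at least 2-fold.

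Defining markers matched the organ labels. The stomatal lineage regulators SPCH, MUTE and FAMA and the leaf polarity regulator YAB5 had 0 counts in all 3 root libraries, against 415, 191, 1696 and 1404 counts in shoots. The leaf marker YAB1 had 3 counts in roots and 3309 in shoots, and the stomatal marker TMM had 27 and 1440. None of the 5 green tissue markers was at 0 in roots: LHCB1.3, a light-harvesting chlorophyll protein, had 292, 318 and 216 CPM in roots, against 33210.2, 38450.1 and 33487 CPM in shoots. In the other direction, the endodermal membrane protein CASP1 had 105, 70.8 and 93.97 CPM in roots, against 2.98, 2.30 and 2.34 CPM in shoots, and the 4 root hair markers stood at 0.393 to 1.65 CPM in shoots.

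Uptake and movement of sulfate were split between organs by transporter. Of 12 sulfate transporters, 6 were called at least 2-fold higher in roots and 3 in shoots, where 22.6% and 20.3% of all tested loci were, and their median difference was 1.26, against 0.06 over all loci. SULTR1;2, the main high-affinity uptake carrier of the root epidermis, had 247, 204 and 166 CPM in roots, against 18.4, 20.6 and 17.0 CPM in shoots. All 3 root libraries lay above all 3 shoot libraries, an 11.0-fold difference (log2 3.46 ± 0.16, edgeR adjusted p = 2.38e-10). SULTR1;1, the other uptake carrier, had 6.98, 6.2 and 4.42 CPM in roots, against 1.44, 1.24 and 0.643 CPM in shoots (log2 2.36 ± 0.27). Per transcript length it provided 3.70 ± 0.239% of the uptake pair in roots and 7.30 ± 2.36% in shoots (SD, n = 3 each), and SULTR1;2 the remainder.

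SULTR2;1, a low-affinity carrier of the vasculature, ran the other way with 23.1, 19.0 and 21.5 CPM in roots, against 106, 147 and 135 CPM in shoots (log2 -2.61 ± 0.12). Its partner SULTR2;2 was not called, at 10.4, 11.52 and 11.1 CPM in roots, against 11.0, 14.1 and 13.0 CPM in shoots; it was called without shoot replicate 1, at -0.30, and in the other direction under total-count scaling, at 0.35. Among the group 3 transporters, which include plastid envelope and vascular carriers, SULTR3;3 had 6.55, 4.52 and 4.97 CPM in roots, against 80.7, 101 and 97.8 CPM in shoots and SULTR3;1, a carrier of the chloroplast envelope, had 0.249, 0.266 and 0.291 CPM in roots, against 11.2, 16.1 and 15.02 CPM in shoots. Both lay far lower in every root library. SULTR3;5, a vascular partner of SULTR2;1 in roots, had 40.1, 53.4 and 44.5 CPM in roots, against 2.98, 2.19 and 2.66 CPM in shoots (log2 4.13 ± 0.24), and SULTR3;4 had 16.5, 19.7 and 19.3 CPM in roots, against 3.28, 4.05 and 4.59 CPM in shoots (log2 2.23 ± 0.12). SULTR3;5 thus made up 63.1 ± 3.14% of the group 3 level per transcript length in roots and SULTR3;3 78.9 ± 0.481% in shoots (SD, n = 3). The vacuolar exporters SULTR4;1 and SULTR4;2 were both higher in roots, by 1.25 and 1.27 on the log2 scale, in nearly the same proportion: SULTR4;1 held 76.1 ± 0.701% of the pair in roots and 76.3 ± 1.98% in shoots.

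**Figure D1:**
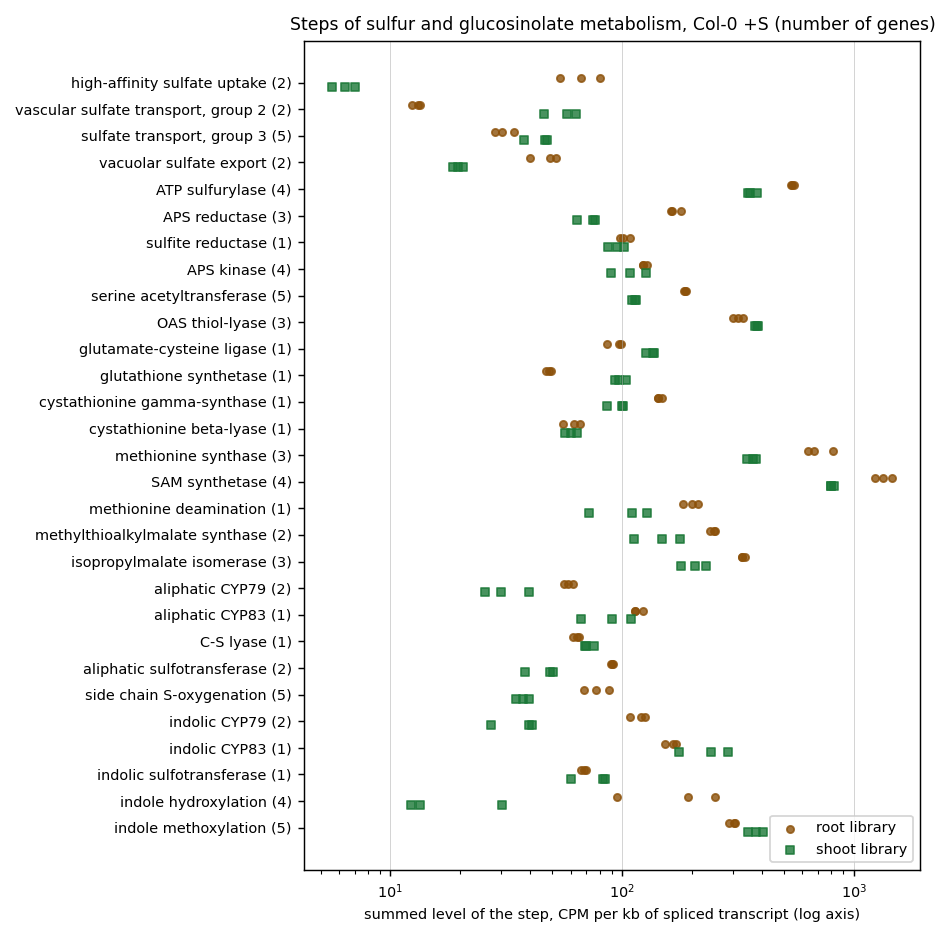
Summed level of each step of sulfur and glucosinolate metabolism in the 3 root libraries (circles) and the 3 shoot libraries (squares), in CPM per kb of spliced transcript on a log axis, with the number of genes in each step. Indole hydroxylation and indole methoxylation each pool genes for different ring positions. Roots lay above shoots without overlap at sulfate uptake, APS reductase, aliphatic and indolic CYP79 and indole hydroxylation; for group 3 transport, OAS thiol-lyase, glutamate-cysteine ligase, C-S lyase, indolic CYP83 and indole methoxylation, drawn lower in roots, the direction turned under total-count scaling.

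Activation and reduction were expressed in both organs, with a different leading gene at ATP sulfurylase and at APS reductase. Of 10 loci, 3 were called at least 2-fold higher in roots and 1 in shoots, where 22.6% and 20.3% of all tested loci were. ATPS4, a plastid ATP sulfurylase, had 541, 581 and 572 CPM in roots, against 113, 88.4 and 90.1 CPM in shoots (log2 2.54 ± 0.10, edgeR adjusted p = 6.02e-11). ATPS1, another isoform, had 394, 359 and 391 CPM in roots, against 465, 493 and 539 CPM in shoots and was called lower in roots by a small margin (log2 -0.39 ± 0.10), which turned to 0.16 under total-count scaling. The step as a whole had 542 ± 7.78 CPM per kb in roots and 362 ± 18.9 in shoots (SD, n = 3 each), with ATPS4 providing 54.7 ± 1.77% of it in roots and ATPS1 72.2 ± 1.85% in shoots. ATPS3, a minor isoform, had 14.9, 13.5 and 12.8 CPM in roots, against 25.5, 33.8 and 44.1 CPM in shoots (log2 -1.32 ± 0.18).

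APS reductase, the step that commits sulfate to reduction, summed to 169 ± 9.45 CPM per kb in roots and 71.8 ± 6.64 in shoots (SD, n = 3 each). APR1 had 155, 149.8 and 147 CPM in roots, against 30.8, 33.7 and 30.9 CPM in shoots (log2 2.24 ± 0.11) and APR3 106, 88.1 and 90.3 CPM in roots, against 39.2, 28.7 and 25.4 CPM in shoots (log2 1.605 ± 0.15). APR2, the isoform known for most of the activity in leaves, had 83.3, 77.3 and 74.4 CPM in roots, against 78.4, 85.0 and 69.5 CPM in shoots and was not called (log2 0.01 ± 0.08, edgeR adjusted p = 0.892). Under total-count scaling APR2 stood at 0.56 and was called. It held 22.6 ± 0.326% of the step in roots and 52.8 ± 2.5% in shoots. Sulfite reductase, encoded by SIR alone, overlapped between organs at 359, 326 and 335 CPM in roots, against 290.1, 315 and 338 CPM in shoots and was not called. Of the 6 PAPS branch loci none differed 2-fold: the APS kinases APK1 and APK2, which supply glucosinolate sulfation, had 84.6, 85.7 and 90.9 CPM in roots, against 59.2, 77.0 and 86.7 CPM in shoots for APK1 and 82.4, 80.4 and 81.8 CPM in roots, against 56.6, 60.2 and 82.7 CPM in shoots for APK2, and neither was called. Both were called higher in roots without shoot replicate 3, at 0.35 for APK1 and 0.48 for APK2, and under total-count scaling, at 0.78 and 0.85.

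**Figure D2:**
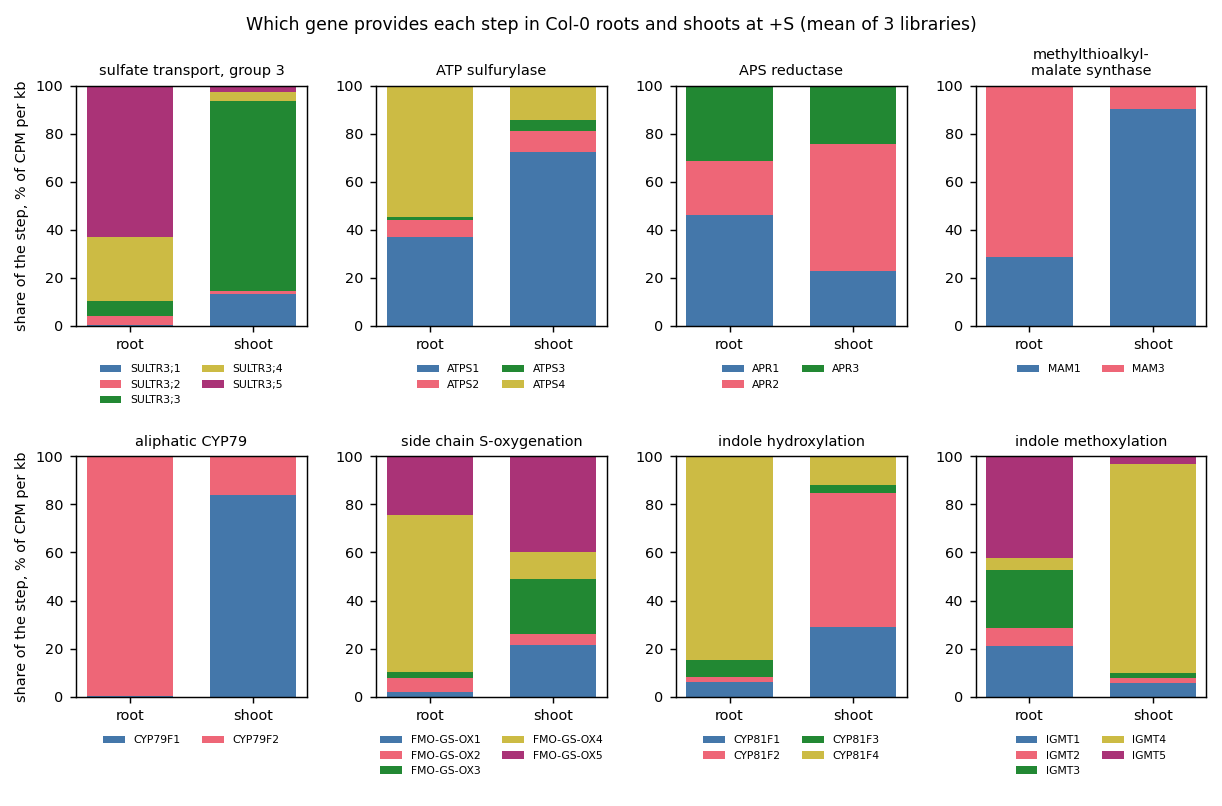
Share of each gene in the summed level of its step, in % of CPM per kb of spliced transcript, as the mean of 3 libraries, with the root bar left of the shoot bar in each panel. The indole hydroxylation and indole methoxylation panels each pool genes for different ring positions. SULTR3;5, ATPS4, MAM3, CYP79F2, FMO-GS-OX4 and CYP81F4 hold the largest share in roots, and SULTR3;3, ATPS1, MAM1, CYP79F1 and IGMT4 in shoots.

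Cysteine synthesis showed small differences at the main steps and large ones in side branches. Serine acetyltransferase, which makes O-acetylserine, summed to 187 ± 2.27 CPM per kb in roots and 113 ± 1.99 in shoots (SD, n = 3 each), with all 5 genes in similar shares in both organs. OAS thiol-lyase summed to 316 ± 16.5 CPM per kb in roots and 380.0 ± 5.78 in shoots (SD, n = 3 each), an order that turned under total-count scaling, with the cytosolic OASA1 at 63.1 ± 1.39% in roots and 62.5 ± 2.61% in shoots. The mitochondrial OASC had 97.4, 91.2 and 95.7 CPM in roots, against 43.1, 38.8 and 46.6 CPM in shoots (log2 1.15 ± 0.08). The plastid OASB had 107, 107 and 105 CPM in roots, against 179, 205 and 209 CPM in shoots (log2 -0.89 ± 0.07). CS26, a plastid S-sulfocysteine synthase known for its role under long days, had 4.87, 4.68 and 4.74 CPM in roots, against 22.0, 18.9 and 21.3 CPM in shoots (log2 -2.12 ± 0.11). CYSC1, the mitochondrial enzyme that detoxifies cyanide with cysteine, had 307, 317 and 313 CPM in roots, against 681, 659 and 694 CPM in shoots (log2 -1.12 ± 0.07). DES1, a cytosolic cysteine desulfhydrase that releases sulfide, had 0 counts in all 3 root libraries, against 7.53, 10.6 and 9.56 CPM in shoots. Set against a floor of 3 counts over the 3 root libraries, that is at least 353-fold lower in roots.

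Genes of the OAS cluster, known to rise together when O-acetylserine builds up under sulfur limitation, were already unequal at full sulfate. All 7 were called higher in roots, 6 of them at least 2-fold, with a median of 1.605. Over all tested loci, 40.5% were called higher in roots and 22.6% at least 2-fold, with a median of 0.06. SDI1, a repressor of glucosinolate synthesis, had 12.1, 8.44 and 9.24 CPM in roots, against 0.95, 1.46 and 1.33 CPM in shoots (log2 3.01 ± 0.24). LSU2, a small protein induced by low sulfur, had 29.5, 27.6 and 26.3 CPM in roots, against 5.44, 4.60 and 3.4 CPM in shoots (log2 2.62 ± 0.17), and its paralog LSU1 had 12.2, 10.5 and 9.39 CPM in roots, against 2.85, 1.06 and 1.24 CPM in shoots (log2 2.60 ± 0.29). LSU1 and LSU2 are close paralogs, and reads can be shared between them; without shoot replicate 1 the LSU1 difference was 3.23. SDI2 and SHM7 were higher in roots, by log2 differences of 1.47 and 1.12.

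Both enzymes of glutathione synthesis had lower CPM in roots, GSH1 by a margin that turned under total-count scaling and under limma on log2(TPM + 1). GSH2, glutathione synthetase, had 99.8, 94.7 and 98.2 CPM in roots, against 196, 189 and 211 CPM in shoots (log2 -1.02 ± 0.09) and GSH1, glutamate-cysteine ligase, had 240.0, 209 and 235 CPM in roots, against 329, 307 and 333 CPM in shoots (log2 -0.50 ± 0.08), though the smaller GSH1 difference turned to 0.05 under total-count scaling. Reduction of oxidised glutathione was divided by compartment: GR2, the reductase of plastids and mitochondria, had 67.1, 69.9 and 62.4 CPM in roots, against 213, 253 and 238 CPM in shoots (log2 -1.82 ± 0.08), and GR1, of the cytosol, had 149.6, 124 and 134 CPM in roots, against 70.3, 67.1 and 73.6 CPM in shoots (log2 0.95 ± 0.13). Turnover genes were also divided. GGT1, an apoplastic gamma-glutamyl transpeptidase, differed by -1.57 and the vacuolar GGT4 by 1.06. GGT2 had 0.771, 0.133 and 0.581 CPM in roots and 0 counts in shoots, at least 13.5-fold higher in roots. In all, 2 of the 16 glutathione genes were called at least 2-fold higher in roots and 5 in shoots, where 22.6% and 20.3% of all tested loci were.

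Methionine and S-adenosylmethionine (SAM) synthesis leaned to roots: of 16 loci, 12 were called higher in roots and 5 at least 2-fold, where 40.5% and 22.6% of all tested loci were. The 1 called lower in roots, MS3, turned sign under total-count scaling. SAHH1, which recycles S-adenosylhomocysteine after methylation, had 2131, 1779 and 1829 CPM in roots, against 857, 809 and 784 CPM in shoots (log2 1.23 ± 0.11). MAT3, a SAM synthetase, had 647, 534 and 604 CPM in roots, against 169, 152 and 174 CPM in shoots (log2 1.85 ± 0.10), whereas its relative MAT4 had 596, 489 and 606 CPM in roots, against 498, 492 and 497 CPM in shoots and was not called, though it was without root replicate 2 (0.28). MAT3 made up 24.95 ± 0.470% of SAM synthetase in roots and 11.6 ± 0.802% in shoots. The methionine synthase MS2 differed by 1.67, MMT, which makes S-methylmethionine, by 1.098, and HMT1, which turns it back to methionine, by 1.38. Cystathionine beta-lyase CBL overlapped between organs at 103, 114 and 121 CPM in roots, against 105, 112 and 118 CPM in shoots.

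Genes of sulfolipid synthesis and of the plastid SUF machinery were lower in roots. UGP3 and SQD1, the first enzymes of sulfolipid synthesis, had 13.5, 15.3 and 12.7 CPM in roots, against 79.1, 87.1 and 87.1 CPM in shoots for UGP3 and 15.8, 16.7 and 20.1 CPM in roots, against 76.2, 75.7 and 75.3 CPM in shoots for SQD1. All 5 genes of the plastid SUF machinery for iron-sulfur clusters (NFS2, SUFE1, SUFB, SUFC and SUFD) were called at least 2-fold lower in roots, by log2 differences of -1.56 to -1.94. That rule was met by 20.3% of all tested loci. The mitochondrial NFS1 differed by 0.24. SUFB, for instance, had 65.7, 65.5 and 64.2 CPM in roots, against 191, 207 and 203 CPM in shoots.

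EIL3, also known as SLIM1, the transcription factor of the sulfur limitation response, overlapped between organs and was not called, with 20.1, 20.3 and 18.7 CPM in roots, against 18.7, 20.8 and 19.0 CPM in shoots (log2 0.01 ± 0.07, edgeR adjusted p = 0.872). Under total-count scaling it stood at 0.56 and was called. EIL1, of ethylene signalling, had 42.8, 42.1 and 44.6 CPM in roots, against 113, 122 and 116 CPM in shoots (log2 -1.44 ± 0.07). EIN3, the main ethylene factor, had 154, 153 and 151 CPM in roots, against 234, 216 and 216 CPM in shoots, a called difference of -0.54 that stood at 0.01 under total-count scaling. EIL2, another member of the family, had 40 counts in roots and 1 in shoots, and 2 further loci of this list did not pass the filter on low counts.

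The MYB factors that drive glucosinolate genes were divided within each branch. Of the aliphatic regulators, MYB28 had 61.5, 65.3 and 65.5 CPM in roots, against 27.2, 41.7 and 36.5 CPM in shoots (log2 0.87 ± 0.13), but MYB29 had 0.0227, 0 and 0.0291 CPM in roots, against 11.8, 23.7 and 20.1 CPM in shoots. The 2 counts of MYB29 in roots, against 1449 in shoots, give a ratio of shoot to root of 1076 with a 95% counting interval of 292 to 8721. MYB76, the third of the group, had 1 count in roots and 70 in shoots. Of the indolic regulators, MYB34 had 103, 113 and 109 CPM in roots, against 12.1, 16.7 and 15.7 CPM in shoots (log2 2.88 ± 0.11, edgeR adjusted p = 4.07e-11) and MYB122 2.61, 2.26 and 3.26 CPM in roots, against 1.15, 0.146 and 0.827 CPM in shoots (log2 1.92 ± 0.48, and 2.55 without shoot replicate 1). MYB51 had 11.52, 16.1 and 14.2 CPM in roots, against 69.1, 30.1 and 38.7 CPM in shoots (log2 -1.73 ± 0.24), with shoot replicate 1 above the other shoots. Their MYC partners had small differences. MYC4 stood at 0.69 and MYC3, not called, at 0.10. MYC2 stood at 0.36 with overlapping libraries, and its call was lost without root replicate 1 (0.34), root replicate 3 (0.33), shoot replicate 1 (0.37) or shoot replicate 2 (0.22), and with RLE factors, DESeq2 or the 6 +S libraries alone.

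Aliphatic glucosinolate synthesis was expressed in both organs, with the key gene exchanged at several steps. Chain elongation of methionine begins with BCAT4, at 266, 308 and 292 CPM in roots, against 105, 186 and 159 CPM in shoots (log2 0.94 ± 0.26), and the transporter BAT5, which carries keto acids into plastids, had 76.5, 83.6 and 76.4 CPM in roots, against 23.2, 43.3 and 35.1 CPM in shoots (log2 1.22 ± 0.20). The condensing step was provided by neighbouring genes: MAM3, which makes long side chains, had 325, 329 and 315 CPM in roots, against 26.3, 28.7 and 20.3 CPM in shoots (log2 3.68 ± 0.16, edgeR adjusted p = 1.52e-10), and MAM1, which makes short ones, had 140.2, 140.4 and 127 CPM in roots, against 188, 312 and 264 CPM in shoots (log2 -0.91 ± 0.28), a call lost at -0.35 under total-count scaling. MAM3 held 71.4 ± 0.744% of the step in roots and 9.70 ± 2.79% in shoots. Of the 9 elongation genes, 4 were called at least 2-fold higher in roots and none in shoots, where 2 were called by a smaller difference. Over all tested loci the 2-fold shares were 22.6% and 20.3%.

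The first step of the core pathway is carried by CYP79F1, which accepts short- and long-chain methionine derivatives, and CYP79F2, which accepts long-chain ones. CYP79F1 had 1.04, 0.506 and 0.494 CPM in roots, against 54.4, 93.4 and 72.7 CPM in shoots (log2 -6.71 ± 0.39, edgeR adjusted p = 3.39e-09), and CYP79F2 had 123, 117 and 113 CPM in roots, against 11.6, 11.2 and 7.35 CPM in shoots (log2 3.54 ± 0.18, edgeR adjusted p = 8.55e-10). No root library overlapped with a shoot library for either gene, in opposite directions. CYP79F2 made up 99.6 ± 0.173% of the step in roots and CYP79F1 83.8 ± 5.52% in shoots. Summed, the step had 58.6 ± 2.77 CPM per kb in roots and 31.8 ± 7.14 in shoots (SD, n = 3 each). The next enzyme, CYP83A1, is encoded by a single gene and was not called, at 217, 235 and 218 CPM in roots, against 127, 208 and 173 CPM in shoots. It was called higher in roots without shoot replicate 2, at 0.57, and under total-count scaling, at 0.95. Of the glutathione S-transferases of the pathway, GSTF11 had 23.4, 23.4 and 23.3 CPM in roots, against 3.14, 8.50 and 7.76 CPM in shoots (log2 1.86 ± 0.28) and GSTU20 56.7, 58.6 and 62.4 CPM in roots, against 114, 190.0 and 186 CPM in shoots (log2 -1.46 ± 0.22). The sulfotransferase SOT18, which works on aliphatic substrates, had 92.6, 88.1 and 84.7 CPM in roots, against 28.8, 43.8 and 39.1 CPM in shoots (log2 1.25 ± 0.12).

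CYP79F1 and CYP79F2 lie 1183 bases apart on chromosome 1, and MAM1 and MAM3 11144 bases apart on chromosome 5. The longest spliced transcripts of CYP79F1 and CYP79F2 were identical at 89.8% of 1970 aligned bases and those of MAM1 and MAM3 at 83.4% of 1781. Only 5.60% of the 31-base words of CYP79F1 occurred in CYP79F2, and none of MAM1 in MAM3, so few reads of the spliced transcripts could be shared. The 250 bases before the annotated starts of CYP79F1 and CYP79F2 shared no run longer than 8 bases. They are shown because these close relatives were higher in opposite organs. Sequences are 5' to 3' on the strand of the gene, from the RefSeq copy of the TAIR10.1 genome, and capitals mark matches on either strand to TATAAA, a core promoter element found in 46.5% of 22074 such windows of tested loci.
CYP79F1, chr1:5608432-5608681, plus strand: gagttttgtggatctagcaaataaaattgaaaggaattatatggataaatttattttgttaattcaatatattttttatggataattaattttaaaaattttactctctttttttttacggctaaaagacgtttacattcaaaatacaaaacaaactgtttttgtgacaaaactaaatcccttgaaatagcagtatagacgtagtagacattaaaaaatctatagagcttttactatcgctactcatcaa
CYP79F2, chr1:5604794-5605043, plus strand: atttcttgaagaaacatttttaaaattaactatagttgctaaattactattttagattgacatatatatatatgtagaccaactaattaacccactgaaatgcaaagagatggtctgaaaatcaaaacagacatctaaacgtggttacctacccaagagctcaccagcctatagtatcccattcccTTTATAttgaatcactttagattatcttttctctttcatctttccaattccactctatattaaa
The CYP79F1 window held 0 such matches and that of CYP79F2 1. A match or its absence describes these letters only.

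Side chain genes also differed in level between organs. Among flavin monooxygenases that oxidise the side chain sulfur, FMO-GS-OX4 had 134, 109 and 97.4 CPM in roots, against 10.6, 6.13 and 10.5 CPM in shoots (log2 3.64 ± 0.24), and FMO-GS-OX3, its neighbour on chromosome 1, had 4.81, 3.99 and 3.26 CPM in roots, against 15.4, 21.4 and 22.7 CPM in shoots (log2 -2.29 ± 0.23). FMO-GS-OX1 was also lower in roots (log2 -2.35), and FMO-GS-OX2 higher (log2 1.47). FMO-GS-OX5 varied least, at 43.9, 43.3 and 39.9 CPM in roots, against 36.2, 31.5 and 31.6 CPM in shoots. AOP2 had 1.84, 1.62 and 1.16 CPM in roots, against 8.42, 17.0 and 18.2 CPM in shoots. A transcript level does not show whether the Col-0 gene gives an active enzyme. AOP3 and BZO1 had 0 counts in all 6 libraries.

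Indolic synthesis started from a precursor pathway with most genes lower in roots, mainly by less than 2-fold. Of 7 tryptophan synthesis genes, 6 were called lower in roots and 2 at least 2-fold, where 35.9% and 20.3% of all tested loci were. Their median was -0.89, and -0.34 under total-count scaling. TSA1, 1 of the 6, had overlapping libraries (log2 -0.43) and stood at 0.12 under total-count scaling. It was not called without root replicates 1, 2 or 3 (-0.41, -0.41 and -0.45) or shoot replicates 1 or 3 (-0.22 and -0.44). PAT1, the next enzyme after the entry step, had 23.1, 22.3 and 25.3 CPM in roots, against 97.9, 69.2 and 81.6 CPM in shoots (log2 -1.82 ± 0.14) and ASA1, the feedback-regulated entry enzyme, 38.29, 38.29 and 39.9 CPM in roots, against 112, 82.7 and 114 CPM in shoots (log2 -1.40 ± 0.13). CYP79B2 and CYP79B3, which turn tryptophan into indole-3-acetaldoxime, were nevertheless higher in roots. CYP79B2 had 149, 155 and 130.2 CPM in roots, against 53.6, 23.7 and 39.5 CPM in shoots (log2 1.89 ± 0.23) and CYP79B3 114, 120.5 and 105 CPM in roots, against 32.6, 35.9 and 50.4 CPM in shoots (log2 1.52 ± 0.16). CYP83B1, the next step, had 291, 315 and 324 CPM in roots, against 544, 334 and 461 CPM in shoots (log2 -0.53 ± 0.14), which stood at 0.02 under total-count scaling, and the sulfotransferase SOT16 was not called at 93.8, 89.8 and 92.2 CPM in roots, against 114, 80.9 and 111 CPM in shoots. Without shoot replicate 2 SOT16 was called at -0.29, and under total-count scaling at 0.40.

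The largest organ differences of the indolic branch were in ring modification. Of its 9 genes, 6 were called at least 2-fold higher in roots and 2 in shoots, against 22.6% and 20.3% of all tested loci. CYP81F4, which hydroxylates the indole nitrogen, had 122, 293 and 395 CPM in roots, against 11.1, 2.23 and 0.919 CPM in shoots (log2 5.76 ± 0.77, edgeR adjusted p = 1.54e-05). Root replicate 1 was the lowest root and shoot replicate 1 the highest shoot; without that shoot library the difference was 7.37. CYP81F3 had 22.0, 16.6 and 19.5 CPM in roots, against 0.59, 1.17 and 0.827 CPM in shoots (log2 4.49 ± 0.30). CYP81F2, which hydroxylates ring position 4 in pathogen defence, had 5.03, 7.18 and 6.05 CPM in roots, against 32.9, 9.23 and 15.1 CPM in shoots (log2 -1.66 ± 0.35), with shoot replicate 1 the highest, and -0.99 without it. The summed hydroxylation level pools the 4 CYP81F genes, although they act at different ring positions. CYP81F4 held 84.8 ± 8.82% of that sum in roots and CYP81F2 55.9 ± 11.6% in shoots.

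Methylation of the hydroxyl group follows. IGMT5, the enzyme for the nitrogen position, had 179.5, 176 and 167 CPM in roots, against 15, 13.9 and 18.9 CPM in shoots (log2 3.46 ± 0.12). IGMT4 had 23.6, 28.6 and 25.7 CPM in roots, against 603, 546 and 577 CPM in shoots (log2 -4.47 ± 0.11, edgeR adjusted p = 1.5e-12), the opposite of its relatives: IGMT3 had 101, 102 and 107 CPM in roots, against 15.6, 5.18 and 9.92 CPM in shoots (log2 3.33 ± 0.27) and IGMT1 109, 101 and 86.04 CPM in roots, against 40.7, 29.95 and 32.3 CPM in shoots (log2 1.52 ± 0.15). IGMT4 made up 4.97 ± 0.497% of the summed level of the 5 IGMT genes in roots and 87.2 ± 2.4% in shoots. That sum includes IGMT5 and so pools different ring positions. IGMT3 and IGMT4 lie 7210 bases apart on chromosome 1, and their spliced transcripts were identical at 92.3% of 1407 aligned bases. Some 15.1% of the 31-base words of IGMT3 occurred in IGMT4, so part of their reads can be shared, and the level of the lower gene in each organ is uncertain. Their windows, printed because the organ order turned between such close copies, shared no run longer than 9 bases.
IGMT3, chr1:7391604-7391853, minus strand: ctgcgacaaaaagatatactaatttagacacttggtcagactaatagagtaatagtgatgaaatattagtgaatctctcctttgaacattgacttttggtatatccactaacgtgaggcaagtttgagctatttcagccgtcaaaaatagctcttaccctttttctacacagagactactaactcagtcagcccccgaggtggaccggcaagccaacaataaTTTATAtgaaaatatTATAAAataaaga
IGMT4, chr1:7400737-7400986, minus strand: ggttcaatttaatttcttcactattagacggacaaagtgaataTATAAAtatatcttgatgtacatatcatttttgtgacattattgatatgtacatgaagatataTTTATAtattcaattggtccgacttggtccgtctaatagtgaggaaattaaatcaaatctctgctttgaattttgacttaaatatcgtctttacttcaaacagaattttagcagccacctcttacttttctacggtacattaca
Each window held 2 of the TATA-like matches, in capitals, at different places. Camalexin, the other indole defence compound, is finished by PAD3, which had 3.79, 4.50 and 3.75 CPM in roots, against 39.2, 3.17 and 18.6 CPM in shoots. The shoots overlapped with the roots (log2 -2.35 ± 0.60), shoot replicate 1 was again the highest, and the difference was -1.40 without it.

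Of 3 glucosinolate transporters, 1 was called at least 2-fold, as were 42.9% of all tested loci. GTR3, a transporter with preference for indolic glucosinolates, had 81.6, 91.5 and 79.7 CPM in roots, against 6.58, 7.99 and 7.76 CPM in shoots (log2 3.50 ± 0.10, edgeR adjusted p = 3.65e-12), whereas GTR1 had 38.8, 34.8 and 35.1 CPM in roots, against 43.6, 38.5 and 40.4 CPM in shoots and was not called, and GTR2 stood at 0.33. GTR1 was called without root replicate 1 (-0.23) or shoot replicate 2 (-0.21), and with the opposite sign under total-count scaling (0.37).

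Breakdown was divided between organs, over 25 loci in the lists of myrosinases, other beta-glucosidases, specifiers, nitrilases and ER body genes. Of these, 14 were called at least 2-fold higher in roots and 8 in shoots, where 22.6% and 20.3% of all tested loci were. TGG1, the classical myrosinase of guard cells and phloem idioblasts, had 0.272, 0.0266 and 0 CPM in roots, against 1891, 2534 and 2477 CPM in shoots (log2 -14.29 ± 0.92, edgeR adjusted p = 9.17e-09), and -16.98 without root replicate 1, which held most of its few root counts. TGG2 had 0 counts in roots and 660.3, 931 and 883 CPM in shoots, at least 31509.9-fold lower in roots against a floor of 3 counts over the root libraries. In the other groups of the study the smallest such log2 difference was -8.48, so that fold describes these 3 root libraries only. The root myrosinases TGG4 and TGG5 ran the other way. TGG4 had 61.7, 71.0 and 80.05 CPM in roots, against 0.622, 0.839 and 0.735 CPM in shoots (log2 6.597 ± 0.45, edgeR adjusted p = 1.6e-08) and TGG5 59.1, 67.8 and 74.6 CPM in roots, against 0.393, 1.24 and 0.597 CPM in shoots (log2 6.49 ± 0.49, and 7.12 without shoot replicate 2). TGG4 and TGG5 are 97.0% identical over 1747 aligned bases and 48.2% of the 31-base words of TGG4 occur in TGG5, so the split between them is uncertain. Per transcript length TGG4 and TGG5 summed to 76.5 ± 9.39 CPM per kb in roots and 0.816 ± 0.298 in shoots, and TGG1 and TGG2 to 0.0527 ± 0.0794 in roots and 1638 ± 262 in shoots (SD, n = 3 each).

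PYK10, the beta-glucosidase stored in ER bodies of roots, was the locus with the highest mean CPM of the root libraries, with 7315, 7551 and 7632 CPM in roots, against 528, 411 and 485 CPM in shoots (log2 3.98 ± 0.15, edgeR adjusted p = 3.6e-11). BGLU21 and BGLU22, its relatives, differed by 6.02 and 5.97. NAI2, an ER body protein, had 729.8, 698 and 706 CPM in roots, against 82.3, 78.4 and 96.5 CPM in shoots (log2 3.05 ± 0.11), NAI1, the factor that drives these genes, 69.9, 74.3 and 84 CPM in roots, against 7.60, 6.02 and 12.2 CPM in shoots (log2 3.16 ± 0.21), and PBP1, a lectin that binds PYK10, 1600.1, 1519 and 1386 CPM in roots, against 234, 229.9 and 255 CPM in shoots (log2 2.65 ± 0.12). BGLU18, the ER body glucosidase of leaves, had 3.63, 2.02 and 2.47 CPM in roots, against 107, 77.3 and 93.4 CPM in shoots (log2 -5.08 ± 0.20). PEN2, an atypical myrosinase for indolic glucosinolates, had 114, 109 and 112 CPM in roots, against 281, 234 and 257 CPM in shoots (log2 -1.21 ± 0.08).

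The proteins that decide the breakdown product differed by organ too. NSP1, a nitrile specifier, had 732, 652 and 637 CPM in roots, against 115, 112 and 117 CPM in shoots (log2 2.56 ± 0.11). NSP3 and NSP4 were higher in roots by 4.72 and 3.29, and NSP5 was not called. ESM1, which favours isothiocyanates, had 0.476, 0.506 and 0.233 CPM in roots, against 660.1, 610.5 and 569.8 CPM in shoots (log2 -10.53 ± 0.45, edgeR adjusted p = 1.3e-10). ESP, named for epithiospecifier activity, had 0 counts in roots, against 6.03, 7.33 and 6.94 CPM in shoots, at least 260.2-fold lower in roots. Whether Col-0 has that activity cannot be read from transcript levels. Nitrilases act on nitriles. NIT1 had 236, 186 and 219 CPM in roots, against 788, 780.0 and 732 CPM in shoots (log2 -1.84 ± 0.12) and NIT4, which hydrolyses beta-cyanoalanine, 5.49, 2.47 and 3.46 CPM in roots, against 76.6, 69.2 and 75.5 CPM in shoots (log2 -4.26 ± 0.23). NIT3 had 68.3, 52.2 and 63.4 CPM in roots, against 5.76, 4.60 and 5.56 CPM in shoots (log2 3.53 ± 0.15). NIT2 was not called: it had 91.0, 70.7 and 77.6 CPM in roots, against 95.2, 17.0 and 19.2 CPM in shoots, and shoot replicate 1 lay above all roots. Without that library NIT2 was called higher in roots, at 2.14.

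**Figure D3:**
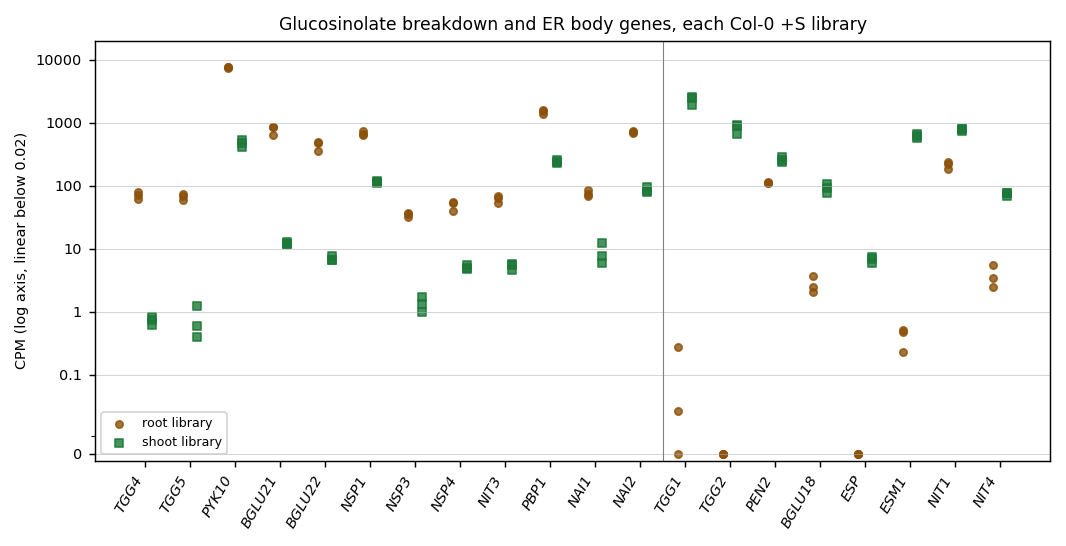
Level of 20 glucosinolate breakdown and ER body genes in each root library (circles, left) and each shoot library (squares, right), in CPM on a log axis that is linear below 0.02. The 12 genes left of the line, TGG4 to NAI2, are higher in every root library, and the 8 genes right of it, TGG1 to NIT4, are lower in every root library, with TGG2 and ESP at 0 in roots.

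Photosynthesis genes were lower in roots. All 41 tested loci of photosystems and light harvesting and all 16 of carbon fixation were called at least 2-fold lower in roots, with medians of -6.600 and -6.63, where 20.3% of all tested loci met that rule. Of 12 photorespiration genes 10 were, and of 12 chlorophyll synthesis genes 11. The transcripts were present in roots at low levels. RBCS1A, a small subunit of Rubisco, had 163, 227 and 165 CPM in roots, against 17215, 19739.9 and 19605 CPM in shoots, and RCA, Rubisco activase, had 68.5, 75.97 and 61.8 CPM in roots, against 6486, 7753 and 7467 CPM in shoots. Across the 41 photosystem genes the root level was a median 1.03% of the shoot level, but it was not the same share for each gene: LHCB1.1 stood at 0.0307% with 3.88, 4.50 and 1.80 CPM in roots, against 10183, 11796 and 11159 CPM in shoots, and its near copy LHCB1.3 at 0.786%. In carbon fixation RBCS2B stood at 0.0100% with 0.113, 0.399 and 0.203 CPM in roots, against 1890.0, 2574 and 2684 CPM in shoots, RBCS3B at 0.0925%, RBCS1A at 0.981% and TKL1, a transketolase also used outside photosynthesis, at 37.3%. Reads can be shared among the RBCS and among the LHCB1 copies. Glycolate oxidase GOX1 had 2.47, 2.77 and 1.25 CPM in roots, against 910.0, 1116 and 1081 CPM in shoots, and CHLH, of the magnesium chelatase, 51.4, 49.9 and 41.6 CPM in roots, against 1217, 1392 and 1292 CPM in shoots.

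**Figure D4:**
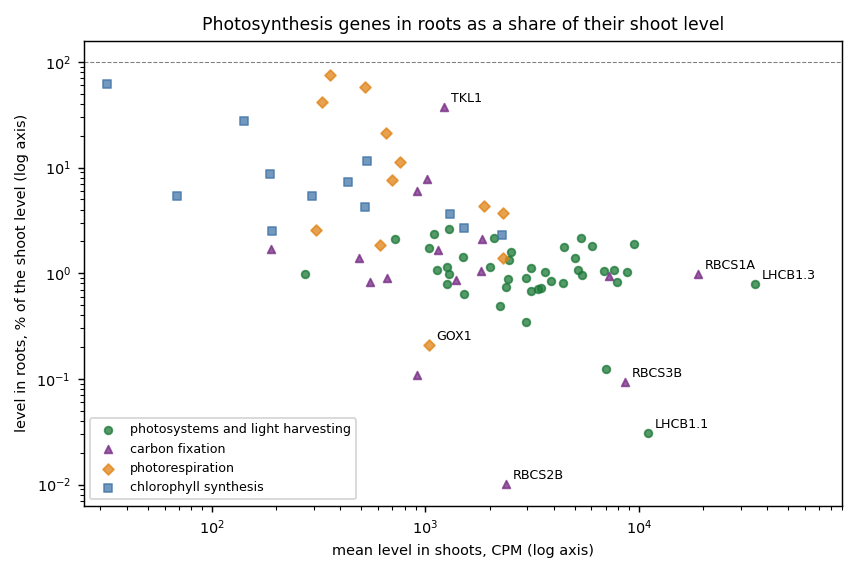
Level of photosynthesis, photorespiration and chlorophyll synthesis genes in roots as a percentage of their level in shoots, against the shoot level, both on log axes, with means of 3 libraries. Most photosystem genes lie near 1% (median 1.03%), while RBCS2B, LHCB1.1 and RBCS3B lie below 0.1%.

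Light-responsive promoters are known for G-box (CACGTG) and I-box (GATAAG) elements, searched here on both strands. Of the 41 photosystem windows of 250 bases, 29.3% held an I-box and 17.1% a G-box, against 12.3% and 7.09% of the 22074 windows of all tested loci. In the 16 carbon fixation windows the shares were 25% and 18.8%. Over all loci called at least 8-fold lower in roots (8.74% of tested loci; 1850 windows) the shares were 17.7% and 7.73%, and over those at least 8-fold higher in roots (9.17% of tested loci; 2040 windows) 11.0% and 5.44%. Other lists, also some higher in roots or mixed, spanned a wide range. A G-box stood in 41.7% of 12 clock, 30.8% of 13 flavonoid and 25% of 20 iron windows. In the 18 Casparian strip and suberin windows that share was 0%. An I-box stood in 38.5% of 13 cysteine synthesis windows and in 0% of 12 chlorophyll synthesis windows. Such shares were thus not particular to photosynthesis genes. Only 3 photosystem windows held both a G-box and an I-box. They are printed with the G-box, the I-box and the TATA-like element in capitals, as examples.
LHCB6, chr1:5447881-5448130, minus strand: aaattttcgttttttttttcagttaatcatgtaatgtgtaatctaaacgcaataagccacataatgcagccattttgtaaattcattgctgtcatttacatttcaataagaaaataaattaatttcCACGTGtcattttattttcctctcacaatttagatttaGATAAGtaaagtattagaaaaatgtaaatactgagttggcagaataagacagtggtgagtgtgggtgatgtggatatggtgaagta
PSBQ2, chr4:2673244-2673493, minus strand: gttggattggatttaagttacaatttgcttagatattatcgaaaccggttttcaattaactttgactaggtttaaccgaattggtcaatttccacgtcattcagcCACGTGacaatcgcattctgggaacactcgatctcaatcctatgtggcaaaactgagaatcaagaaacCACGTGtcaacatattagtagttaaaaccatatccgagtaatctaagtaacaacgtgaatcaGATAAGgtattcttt
PSAH2, chr1:19454548-19454797, plus strand: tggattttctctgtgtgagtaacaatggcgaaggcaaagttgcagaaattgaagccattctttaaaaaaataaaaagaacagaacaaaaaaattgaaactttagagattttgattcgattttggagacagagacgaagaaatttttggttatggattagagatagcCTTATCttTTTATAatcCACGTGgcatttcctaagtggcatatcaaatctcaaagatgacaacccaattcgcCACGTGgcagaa
LHCB6, a minor antenna protein, had 36.7, 39.3 and 36.3 CPM in roots, against 3174, 4039 and 3687 CPM in shoots. PSBQ2, of the oxygen-evolving complex, had 15.3, 20.8 and 16.9 CPM in roots, against 2032, 2548 and 2548 CPM in shoots, and PSAH2, a photosystem I subunit, 7.69, 11.7 and 9.36 CPM in roots, against 1276, 1617 and 1661 CPM in shoots. A match is a description of the letters and not of binding.

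Mineral uptake was expressed in roots. Of 21 nitrogen loci, 14 were called at least 2-fold higher in roots and 3 in shoots, where 22.6% and 20.3% of all tested loci were. NRT2.1, the high-affinity nitrate transporter, had 1222, 1222 and 1069 CPM in roots, against 65.7, 65.6 and 75.1 CPM in shoots (log2 4.09 ± 0.13). Of the nitrate reductases, NIA1 had 770.4, 748 and 638 CPM in roots, against 82.4, 82.4 and 87.2 CPM in shoots (log2 3.097 ± 0.12). NIA2 had 385, 361 and 315 CPM in roots, against 514, 524 and 550.5 CPM in shoots, a small difference (-0.58, and -0.03 with no call under total-count scaling). Ammonium assimilation was divided by compartment, with the cytosolic GLN1;2 at 887, 820.1 and 745 CPM in roots, against 297, 309 and 297 CPM in shoots and the plastid GLN2 at 168, 148 and 155 CPM in roots, against 1189, 1451 and 1424 CPM in shoots. GLU1, the ferredoxin-dependent glutamate synthase of photorespiration, had 3.54, 4.63 and 2.50 CPM in roots, against 901, 1112 and 1014 CPM in shoots.

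Phosphate, potassium and iron genes followed the same division. PHT1;1, the phosphate uptake carrier, had 378, 342 and 315 CPM in roots, against 14.4, 9.52 and 12.6 CPM in shoots (log2 4.82 ± 0.17), PHO1, which exports phosphate to the xylem, 351, 402 and 345 CPM in roots, against 33.4, 41.4 and 35.5 CPM in shoots (log2 3.31 ± 0.10), and PHT2;1, of the chloroplast envelope, 21.3, 21.4 and 17.6 CPM in roots, against 166, 207 and 184 CPM in shoots (log2 -3.21 ± 0.10). For potassium, the uptake channel AKT1 had 131, 144 and 128 CPM in roots, against 29.1, 26.01 and 28.2 CPM in shoots (log2 2.28 ± 0.07), and the guard cell channel KAT1 had 1 count in roots and 3880 in shoots. Of 20 iron loci, 14 were called at least 2-fold higher in roots and 6 lower, where 22.6% and 20.3% of all tested loci were. PDR9, which exports coumarins that mobilise iron, had 165, 157 and 134 CPM in roots, against 12.6, 5.73 and 6.06 CPM in shoots (log2 4.21 ± 0.24) and NAS1, a nicotianamine synthase, 167, 174 and 145 CPM in roots, against 20.4, 26.59 and 23.7 CPM in shoots (log2 2.78 ± 0.11). The 6 lower in roots included the ferritins FER1, FER3 and FER4, with 168, 152 and 149 CPM in roots, against 597, 768 and 995 CPM in shoots for FER1, and the leaf ferric reductases FRO6 and FRO7, with 0.929, 0.532 and 0.494 CPM in roots, against 246, 309 and 310.3 CPM in shoots for FRO6.

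Tissue identity genes separated sharply. All 18 Casparian strip and suberin genes and all 9 root hair genes were called at least 2-fold higher in roots, with medians of 4.13 and 5.55, where 22.6% of all tested loci met that rule. CYP86A1, a suberin fatty acid hydroxylase, had 136, 138 and 125 CPM in roots, against 9.47, 8.57 and 15.3 CPM in shoots (log2 3.59 ± 0.19), and LRX1, a root hair cell wall protein, 49.2, 38.2 and 38.31 CPM in roots, against 0.557, 1.06 and 0.459 CPM in shoots (log2 5.89 ± 0.34). Of 16 stomata and cuticle genes, 13 were called at least 2-fold lower in roots, where 20.3% of all tested loci were. CER6, of wax elongation, had 2.27, 2.34 and 2.12 CPM in roots, against 242, 291 and 290.0 CPM in shoots (log2 -6.93 ± 0.14). CER4, an alcohol-forming fatty acyl reductase, was the 1 gene of this list called at least 2-fold higher in roots, at 13.9, 10.14 and 13.1 CPM in roots, against 1.02, 0.657 and 0.689 CPM in shoots (log2 3.95 ± 0.29). The stem cell regulator PLT1 had 12.4, 9.90 and 12.8 CPM in roots, against 0.229, 0.219 and 0.138 CPM in shoots, and GLK1, which drives chloroplast development, 0.227, 0.266 and 0.378 CPM in roots, against 138, 179.7 and 149 CPM in shoots.

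Cell division, ribosome and xylem genes leaned to roots, the ribosome genes mainly by less than 2-fold. All 21 cell cycle and replication genes were called higher in roots, as 40.5% of all tested loci were, 9 of them at least 2-fold, with a median of 0.89; CDKB2;1, a mitotic kinase, had 32.4, 35.0 and 35.3 CPM in roots, against 17.9, 19.4 and 18.2 CPM in shoots. The ribosomal list was drawn by product names of eukaryotic type, so it does not cover all ribosomal proteins. Of its 78 tested loci, 58 were called higher in roots and 4 lower, where 40.5% and 35.9% of all tested loci were. Of those 4, 2 turned sign under total-count scaling. The list median was 0.37. In this list 5 loci reached 2-fold towards roots and 1 towards shoots, against 22.6% and 20.3% of all tested loci. Of 8 secondary wall and xylem genes 7 were called at least 2-fold higher in roots, as 22.6% of all tested loci were. Among them XCP1, a xylem protease, had 45.8, 52.1 and 53.2 CPM in roots, against 7.402, 8.28 and 7.12 CPM in shoots (log2 2.73 ± 0.15). In the phloem list SUC2, the sucrose loader of companion cells, had 41.8, 40.4 and 36.9 CPM in roots, against 89.2, 92.1 and 91.6 CPM in shoots (log2 -1.19 ± 0.08) and the exporter SWEET11 96.8, 57.1 and 68.9 CPM in roots, against 149.8, 159.8 and 152 CPM in shoots (log2 -1.05 ± 0.18).

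Hormone and specialised metabolism lists were mixed. Of 16 jasmonate genes, 7 were called at least 2-fold higher in roots and 7 in shoots, where 22.6% and 20.3% of all tested loci were. LOX2, the chloroplast lipoxygenase of wound responses, had 0 counts in roots and 239, 171 and 261 CPM in shoots, at least 8577-fold lower in roots, while LOX1, of another branch, had 117, 142 and 115 CPM in roots, against 26.5, 19.1 and 24.1 CPM in shoots (log2 2.42 ± 0.15). Allene oxide cyclases were exchanged: AOC2 had 6.73, 6.52 and 7.32 CPM in roots, against 136, 144 and 227 CPM in shoots (log2 -4.62 ± 0.21) and AOC4 67.4, 58.3 and 68.9 CPM in roots, against 29.9, 31.7 and 29.4 CPM in shoots (log2 1.096 ± 0.07). VSP2, a storage protein induced by jasmonate, had 204, 207 and 182 CPM in roots, against 26.1, 31.2 and 30.8 CPM in shoots (log2 2.75 ± 0.13). AOC1 and AOC2 are near copies, so the AOC2 level is uncertain.

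Of 13 flavonoid and anthocyanin genes, 7 were called at least 2-fold higher in roots and 5 in shoots, where 22.6% and 20.3% of all tested loci were. CHS, chalcone synthase, had 294, 245 and 305 CPM in roots, against 7.89, 6.38 and 9.42 CPM in shoots (log2 5.16 ± 0.29, edgeR adjusted p = 2.43e-09), and FLS1, which makes flavonols, had 51.9, 50.4 and 57.9 CPM in roots, against 3.70, 2.81 and 3.26 CPM in shoots (log2 4.03 ± 0.12). DFR, the first step towards anthocyanins, had 8 counts over the 3 root libraries and 118 over the 3 shoot libraries. The thalianol and marneral gene clusters, which make root triterpenes, were all 6 called at least 2-fold higher in roots, with THAS1, thalianol synthase, at 235, 125 and 137 CPM in roots, against 4.49, 3.50 and 2.62 CPM in shoots (log2 5.53 ± 0.34). Root replicate 1 was the highest of the roots for THAS1.

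Of 22 aquaporins, 9 were called at least 2-fold higher in roots and 6 in shoots, where 22.6% and 20.3% of all tested loci were. They included PIP2;6 at 3.36, 1.81 and 2.44 CPM in roots, against 326, 369 and 369 CPM in shoots (log2 -7.11 ± 0.22) and the tonoplast TIP2;1 at 245, 158 and 215 CPM in roots, against 1342, 1757 and 1730.2 CPM in shoots (log2 -2.97 ± 0.19). The metallothionein MT1C had 179, 215 and 197 CPM in roots, against 18.5, 20.2 and 17.0 CPM in shoots (log2 3.41 ± 0.14), and MT2B 287, 316 and 346 CPM in roots, against 1388, 1453 and 1255 CPM in shoots (log2 -2.11 ± 0.13). Of 12 clock genes, 3 differed 2-fold, where 42.9% of all tested loci did. PRR7, a morning repressor, had 99.6, 117 and 84.1 CPM in roots, against 380.0, 406 and 373 CPM in shoots (log2 -1.95 ± 0.11). The salicylate marker PR1 had 2 counts in roots and 156, 4.45 and 23.2 CPM in shoots, and PR2, a glucanase, had 0.159, 0.16 and 0.0872 CPM in roots, against 212, 17.0 and 69.5 CPM in shoots (-9.46). PR5 stood at -7.86. Shoot replicate 1 was the highest shoot for PR1 and PR2, as it was for PAD3, CYP81F2, MYB51 and NIT2. Among aliphatic glucosinolate genes it was the lowest shoot for MYB28, MYB29, BCAT4, BAT5, MAM1, CYP79F1, CYP83A1, GSTF11, GSTU20, SOT18 and AOP2. For MAM3 and CYP79F2 it was not the lowest. Without shoot replicate 1, BCAT4 stood at 0.74 and BAT5 at 1.01, both still called. Without that library PR1 was still called, as were PR2 at -8.24 and PR5 at -6.47.

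**Figure D5:**
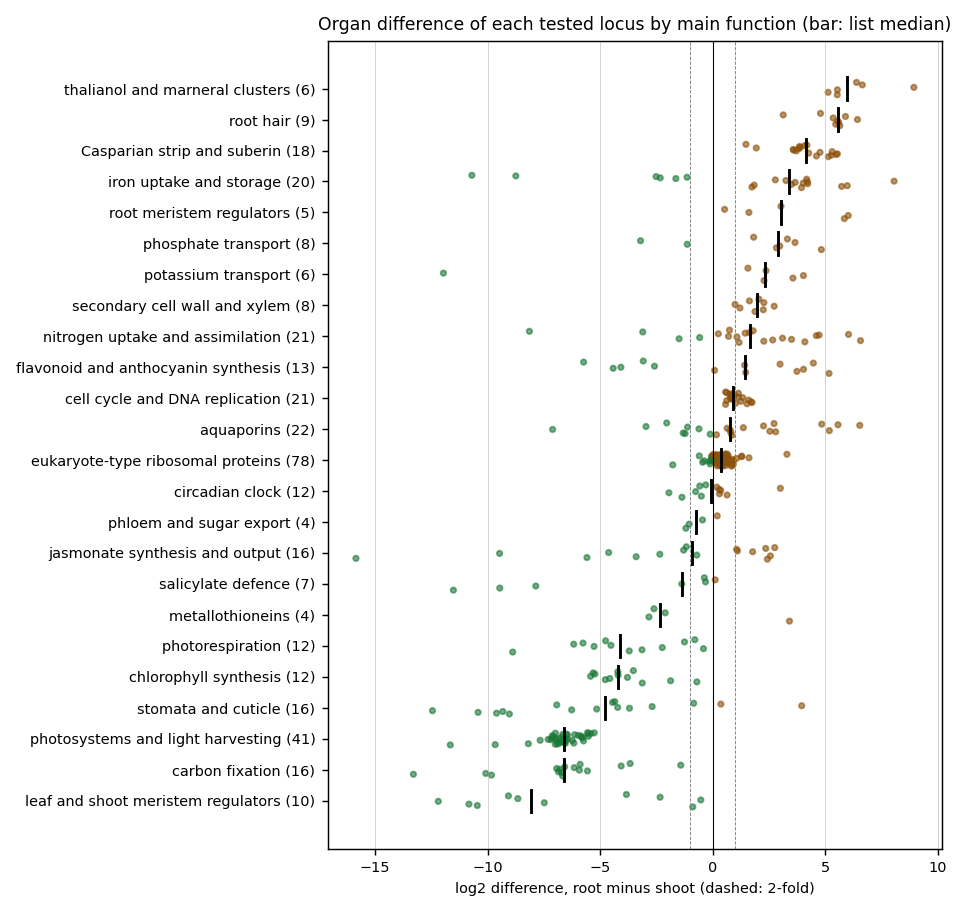
Log2 difference, root minus shoot, of every tested locus in 24 lists of main functions, ordered by the list median (black bar), with the number of tested loci in parentheses and dashed lines at 2-fold. Casparian strip, root hair and thalianol and marneral genes lie wholly right of the 2-fold line, and photosystem and carbon fixation genes wholly left of it.

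Over all loci, the 10 largest fitted log2 differences in each direction were taken. They were taken among called loci with at least 5 CPM in the higher organ and no overlap of libraries. For an organ at 0 counts the fitted value is loosely fixed, so the ranks are uncertain. Towards roots, AT5G58150, a receptor-like kinase, had 13.7, 14.2 and 12 CPM in roots and 0 counts in shoots, at least 355-fold higher in roots. ATC, a relative of the flowering repressor TFL1, and AT1G65570, a pectin lyase-like protein, also had 0 counts in shoots and were at least 276- and 203-fold higher in roots. A mannose-binding lectin locus ranked after these had 7734 counts in roots and 5 in shoots, a 1130-fold difference in mean CPM. The remainder included MRN1, marneral synthase, at 46.2, 14.2 and 18.4 CPM in roots, against 0, 0 and 0.184 CPM in shoots, AGP30, an arabinogalactan protein of roots, at 58.6, 32.3 and 39.1 CPM in roots, against 0.0983, 0.0365 and 0 CPM in shoots, and the signal peptide gene CLE5 at 18.1, 8.91 and 14.6 CPM in roots, against 0.0983, 0 and 0 CPM in shoots. Towards shoots TGG2 came first, and LOX2 and TGG1 were also among the 10. GER3, a germin-like protein, had 0 counts in roots and 169, 177 and 149 CPM in shoots, at least 6435-fold lower in roots, and LTL1, a lipase, was at least 3353-fold lower. AT1G23130, of the lipid transport superfamily, had 2 counts in roots and 46978 in shoots.

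The organ difference was read also in the 7 other combinations of genotype label and sulfate level, as ratios of mean CPM with no test. The mutant groups are named by their labels alone. Of the 100 sulfur and glucosinolate loci called at least 2-fold in Col-0 at +S, 79 had the same direction in all 7 groups. The direction held for 94 to 99 loci in the +S groups and for 85 to 88 in the -S groups. Of the 263 such loci of the function lists, 255 had the same direction throughout. CYP79F1, CYP79F2, MAM3, IGMT4, TGG1, TGG4, PYK10 and SULTR1;2 kept their organ in all 7. The size of a difference varied. Among the 7 groups the smallest log2 ratio was -8.50 for TGG1, -8.48 for TGG2, -8.30 for LOX2 and -5.91 for GER3. Folds given above against a floor thus describe the Col-0 +S libraries only.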

How the data were processed

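mRNA was sequenced from stranded libraries (TruSeq Stranded mRNA), per the labels' protocols. Per the submitters' processing notes, the tools included Trimmomatic 0.36, FastQC and kallisto 0.43.1, with the build TAIR10. The deposited table holds estimated counts and TPM for 33602 targets in 48 libraries; the 48 TPM columns were not used. The authors' estimated counts were rounded, 7.80% of them not being whole. For 74.23% of loci with introns, the target length lay closer to the whole gene, introns included, than to its longest spliced transcript, so reads of unspliced RNA may be included. Of the targets, 32835 (97.72%) matched the RefSeq annotation of TAIR10.1, which gave symbols, transcript lengths and promoters. Shoot columns could be tied to the Col-0 +S shoot group but not to single samples.

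The 12 Col-0 libraries were fitted in 4 groups with edgeR 4.0.16 (R 4.3.3; filterByExpr, TMM, quasi-likelihood test, Benjamini-Hochberg threshold of 0.05; common BCV 0.1182), after a test on simulated data. That simulation changed few loci, in balanced directions, so it does not cover a contrast in which 76.4% of loci were called. SE is the absolute log2 difference over the square root of F. Step sums are CPM per kb of spliced transcript. A group at 0 was set at a floor of 3 counts over its libraries, which left every list median unchanged; counting intervals are exact 95% intervals of the ratio and, like the floors, cover counting error only. Alternatives used RLE factors, total counts, no filter, 6 libraries, nuclear targets, DESeq2 1.42.0, limma 3.58.1 on log2(TPM + 1), with TPM computed from the deposited counts and effective lengths, and each library left out. Members and lists were chosen with earlier results of these data known. Named loci were drawn, without naming each that qualified, from all sulfur and glucosinolate loci, up to 5 called loci of highest CPM per function list with those opposite to most of their list, and the 10 largest differences each way; the markers were a separate list, and TKL1, AOC1, LHCB6, PSBQ2 and PSAH2 were chosen after their values were seen.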

Additional observations from a re-analysis of the deposited data

Results flagged for a closer look

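At -S, medium with 0.015 mM MgSO4 and 0.75 mM MgCl2, the order of the organs in Col-0 was the opposite of that at +S, without overlap of libraries, for 20 of 182 screened sulfur and glucosinolate loci, and for 3 of them with at least a 2-fold difference at both sulfate levels. Other loci were not screened in this way, so whether that share is particular to these pathways was not tested. For all 20, edgeR's test of the interaction gave an adjusted p of at most 0.0208. The 20 were picked by the reversed order in these same libraries, which favours a small p. The test, also where quoted below, therefore adds no separate support. The 3 are described here for their size at both levels. SULTR2;1 averaged 351 ± 20.8 CPM in roots and 101 ± 8.53 CPM in shoots at -S, and 21.2 ± 2.07 CPM in roots and 129 ± 21.2 CPM in shoots at +S (SD, n = 3 each). Its organ difference at -S minus that at +S was 4.41 (edgeR adjusted p = 7.16e-08). LSU1 averaged 274 ± 41.4 CPM in roots and 564 ± 118 CPM in shoots at -S, and 10.7 ± 1.44 CPM in roots and 1.72 ± 0.986 CPM in shoots at +S. The difference of its differences was -3.64 (edgeR adjusted p = 0.000154). BGLU30, a beta-glucosidase induced in the dark and at low sulfate, averaged 265 ± 102 CPM in roots and 1091 ± 386 CPM in shoots at -S, and 19.5 ± 4.16 CPM in roots and 3.84 ± 2.99 CPM in shoots at +S, with a value of -4.36 (edgeR adjusted p = 0.00123). Sulfate and chloride changed together between the media, so their parts cannot be told apart.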

How the results depend on the processing

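No paired analysis was possible because the shoot columns are numbered 1 to 3 while the titles of the Col-0 +S shoot samples hold 2 to 4, so column numbers could not be tied to root samples; the fit with a replicate block was not run. Called loci numbered 16423 to 16683 with 1 library left out and 16116 (6 +S libraries) to 19669 (limma on TPM) under the other alternatives, against 17040. Those called with at least 2-fold numbered 9543 to 9645 and 9249 to 11120, against 9566. Total-count scaling and limma on TPM, which is also scaled by totals, moved the share of called loci higher in roots from 53.1% to 74.6% and 78.3%. Of 197 named loci, 169 kept direction and side of the threshold under every alternative run. Of the 164 called with at least 2-fold none changed direction, and 4 (CYP81F2, FER3, PAD3 and SWEET11) lost the call under limma on TPM. Direction turned under total-count scaling and limma on TPM for ATPS1 (0.16 and 0.36), CYP83B1 (0.02 and 0.25), EIN3 (0.01 and 0.20), GSH1 (0.05 and 0.24), MS3 (0.16 and 0.28), OASA1 (0.29 and 0.49) and TSA1 (0.12 and 0.35), and under limma on TPM for NIA2 (0.16). Of the summed steps, it turned under total-count scaling for group 3 sulfate transport (0.04), OAS thiol-lyase (0.28), glutamate-cysteine ligase (0.05), C-S lyase (0.37), indolic CYP83 (0.02) and indole methoxylation (0.21), none of which had overlapping libraries, and for indolic sulfotransferase (0.40), which had. The 14 named loci not called in the report that gained a call under an alternative all did so under total-count scaling, each higher in roots (0.35 to 1.38), and under limma on TPM; 8 of them also did with 1 library left out, as given beside each. Totals are shared by all loci of a library, so small differences here depend on which loci are taken as level. Loci with under 30 counts in an organ, such as DFR, MYB76 and EIL2, have loosely fixed differences.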
